A study of Homo sapiens with 6 samples.

Results

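The interferon-stimulated effector genes followed here are 36 genes of antiviral and interferon-induced proteins, taken by their symbols from the 32353 genes of the count table, where each symbol had 1 entry. They were read in CAL27 cells, an established human line of tongue squamous carcinoma. The 3 RBM24 libraries came from CAL27 cells made to overexpress RBM24, an RNA-binding protein known mainly as a splicing regulator of heart and skeletal muscle, and the 3 control libraries from CAL27 cells given a control plasmid. The labels name no interferon, virus or other agent, no time after transfection and no separate cultures, so the p-values below measure the spread between these libraries, which may be technical. The series asked how RBM24 changes RNA levels and splicing in CAL27 cells and names apoptosis rates in the title.

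Interferons made by a cell that senses foreign nucleic acid bind receptors on that cell and its neighbours. The receptors activate the kinases JAK1 and TYK2, and these the factor ISGF3, which holds STAT2 and IRF9 and binds the interferon-stimulated response element (ISRE) in promoters. Interferon gamma acts mainly through another element, the gamma-activated site (GAS). Several effector genes, among them OASL, ISG15 and the IFIT genes, can also be induced directly by IRF3 without interferon. In tumour cells a low activity of these genes without added interferon is common.

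The letters of the promoters show what these genes share beyond their names. RefSeq promoter windows on GRCh38.p14, each with 250 bases before and 50 after a gene start, were at hand for 29 of the 36 genes, in 39 windows. The ISRE core (GAAA, any 2 bases, then GAAA again), searched on both strands with overlapping matches counted, was present in 27 of the 39 windows (69.2%), against 1255 of all 35116 windows (3.57%). By gene it was present in 23 of 29 (79.3%), and it was missing in CMPK2, HERC6, IFI35, OAS1, SAMD9L and XAF1. The GAS core TTCNNNGAA, which reads the same on both strands, was present in 9 of the 39 windows (23.1%), against 7.66% of all windows. IFIT2, IFITM2, MX2, OAS2, OASL, TRIM22 and USP18 had no window in the table. A match is a run of letters and not a measured binding site, and a missing match says only that these exact letters are not in that window.

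The 200 bases before the start are printed for the 3 genes that rose, with the ISRE cores in capitals, and for OAS1, the neighbour of OAS3, whose window had none. They are the IFI6 window at chr1:27672193-27672392 (minus strand), the IFI27 window at chr14:94110536-94110735 (plus strand), the OAS3 window at chr12:112938274-112938473 (plus strand) and the OAS1 window at chr12:112906762-112906961 (plus strand).
IFI6: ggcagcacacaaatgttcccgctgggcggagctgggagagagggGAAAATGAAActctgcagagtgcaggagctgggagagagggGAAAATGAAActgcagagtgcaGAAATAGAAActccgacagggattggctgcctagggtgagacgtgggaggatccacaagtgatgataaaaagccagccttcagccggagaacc
IFI27: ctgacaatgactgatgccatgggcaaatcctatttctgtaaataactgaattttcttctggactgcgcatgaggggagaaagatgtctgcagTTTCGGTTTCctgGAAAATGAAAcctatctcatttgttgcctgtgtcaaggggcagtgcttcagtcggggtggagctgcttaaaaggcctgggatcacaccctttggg
OAS3: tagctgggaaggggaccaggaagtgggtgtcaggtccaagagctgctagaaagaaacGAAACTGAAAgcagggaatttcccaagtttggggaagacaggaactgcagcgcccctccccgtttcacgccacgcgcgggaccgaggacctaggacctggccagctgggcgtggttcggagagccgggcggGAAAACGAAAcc
OAS1: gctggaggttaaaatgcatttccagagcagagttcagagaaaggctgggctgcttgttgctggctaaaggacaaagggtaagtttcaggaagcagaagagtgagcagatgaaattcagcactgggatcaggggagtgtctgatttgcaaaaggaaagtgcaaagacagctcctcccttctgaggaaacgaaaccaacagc
The IFI6 window held 3 cores, starting 156, 115 and 93 bases before the gene start, and the first and second of these read the same letters, GAAAATGAAA. The IFI27 window held those letters once, starting 95 bases before the start, and a core on the other strand starting 108 bases before it, with a GAS core starting at 101 bases that shares letters with both. In OAS3 the cores stood 143 and 12 bases before the start. The OAS1 stretch holds GAAACGAAA near its end, with a single base between the GAAA runs, a spacing that the search did not count.

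The libraries held between 53558773 and 68804210 gene counts. The overexpressed gene checked the labels: RBM24 stood at 125, 109 and 124 CPM (counts scaled to the library total) in the RBM24 libraries, against 2.35, 2.96 and 3.50 CPM in the control libraries. Its log2 fold change was 5.34 (SE 0.0995; edgeR adjusted p = 2.16e-15), and reads of the plasmid and of the cells' own gene are counted together. Control library 1 stood apart along the first principal component, at -33.4, against 9.28 to 15.4 for the RBM24 libraries and -4.95 and -0.0363 for the other control libraries. All 8 squamous epithelial markers were detected at unequal levels, from SFN at 344 and 285 FPKM and KRT5 at 152 and 144 FPKM down to KRT6A at 9.38 and 8.31 FPKM and KRT14 at 1.81 and 1.69 FPKM on average in the RBM24 and control libraries. Their summed level was 1909 to 1924 CPM in the RBM24 libraries and 1719 to 1822 CPM in the control libraries, without overlap, and its part in the results was not tested. Of the 8 immune markers, CD14 averaged 10.4 and 10.6 FPKM in the RBM24 and control libraries, PTPRC, CD3E and CD163 averaged under 0.1 CPM in each group, and MS4A1 was not listed. The summed level of the immune markers was 21.0 to 22.9 CPM in the RBM24 libraries and 20.5 to 23.3 CPM in the control libraries.

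All 36 effector genes were expressed in both groups and all passed the filter on low counts, the lowest count in any library being 47 reads of CMPK2. In the deposited FPKM values, which are per length of gene and depend on the length the authors used, IFITM3, ISG15 and BST2 stood highest. IFITM3, which blocks the entry of enveloped viruses from endosomes, averaged 253 ± 6.30 FPKM in RBM24 libraries and 242 ± 19.2 FPKM in control libraries (SD, n = 3 each). ISG15, a ubiquitin-like protein joined to other proteins, averaged 250 ± 4.91 FPKM in RBM24 libraries and 234 ± 19.4 FPKM in control libraries (SD, n = 3 each). BST2, also called tetherin, which holds budding virus at the cell surface, averaged 238 ± 6.07 FPKM in RBM24 libraries and 220 ± 10.9 FPKM in control libraries (SD, n = 3 each). In FPKM the 3 genes overlapped one another in the control libraries. In the RBM24 libraries IFITM3 lay above BST2 without overlap, and ISG15 overlapped both. In CPM, which is not divided by length, IFITM3 stood well above both, at 770 and 752 in the RBM24 and control libraries. ISG15 averaged 232 and 222 CPM there, and BST2 281 and 265 CPM. How close the 3 genes lie thus depends on the gene length used. At the low end were RSAD2, at 0.417 ± 0.0757 FPKM in RBM24 libraries and 0.517 ± 0.0351 FPKM in control libraries, and CMPK2, at 0.24 ± 0.10 FPKM in RBM24 libraries and 0.350 ± 0.0265 FPKM in control libraries (SD, n = 3 each). Between these ends the mean level over the 6 libraries ran from 0.295 FPKM for CMPK2 to 247 FPKM for IFITM3, in cells with no interferon named in their labels.

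**Figure D1:**
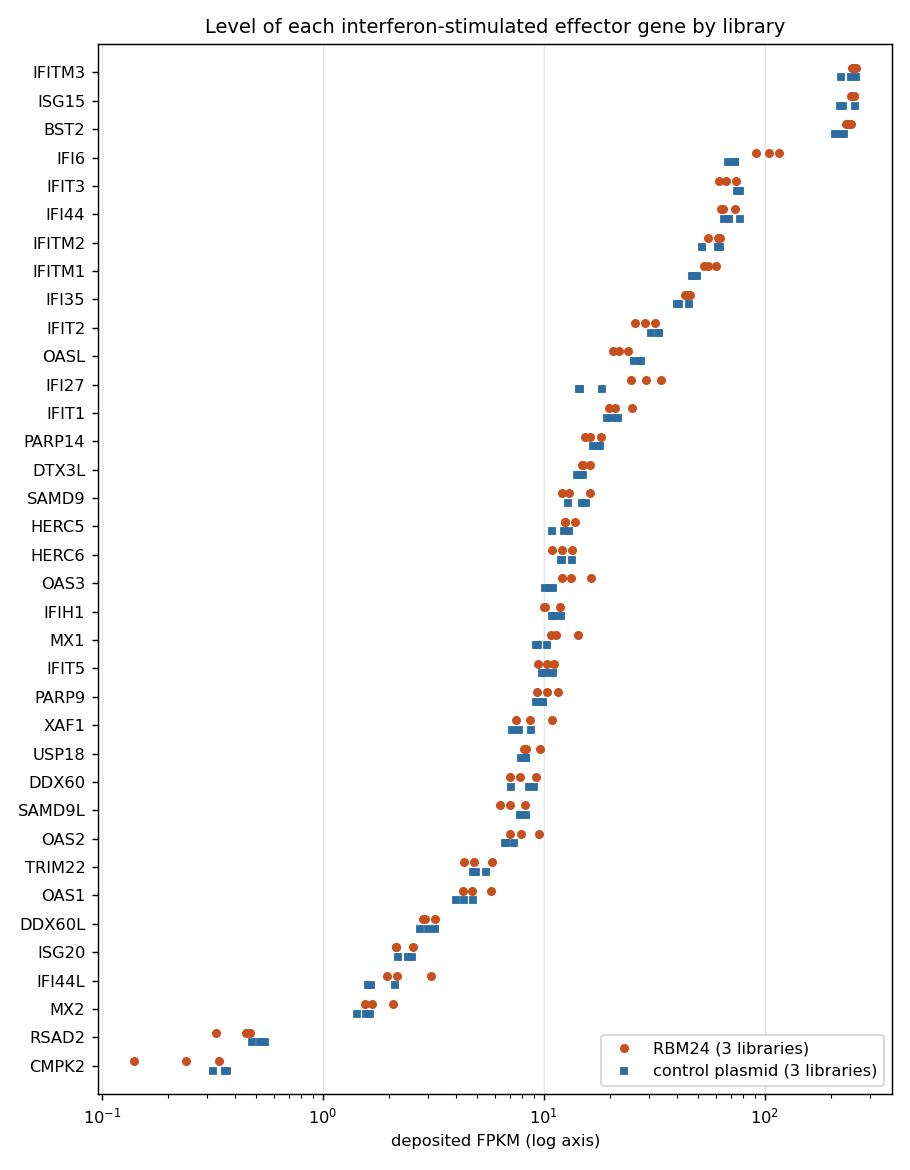
Deposited FPKM on a log axis for each of the 36 effector genes, ordered by their mean over the 6 libraries, with RBM24 libraries as circles above and control plasmid libraries as squares below. IFITM3, ISG15 and BST2 lie above 200 FPKM in all libraries and RSAD2 and CMPK2 below 1, and the order of genes is set far more by the gene than by RBM24.

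With RBM24, 3 effector genes rose and 1 fell. IFI27 rose 1.81-fold, IFI6 1.42-fold and OAS3 1.28-fold, and OASL fell to 0.809 of its control level. The other 32 did not pass the test, and the 36 genes divided almost evenly by direction, with positive log2 fold changes in 19 and negative ones in 17. Their median log2 fold change was 0.04, against -0.00 over all 17887 tested genes. The 4 genes were 11.1% of the effector genes, against 1.54% called among all tested genes; those that rose were 8.33%, against 0.855%, and the one that fell 2.78%, against 0.682% (edgeR quasi-likelihood test, Benjamini-Hochberg adjusted p under 0.05 over all tested genes). At an unadjusted p under 0.05 there were 13 effector genes (36.1%), 7 with positive and 6 with negative changes, against 13.0% of all tested genes. The libraries of the groups did not overlap in 8 effector genes (22.2%), against 18.1% of all tested genes; RBM24 was higher in 5 (13.9%, against 9.53%) and lower in 3 (8.33%, against 8.62%). The effector genes are more abundant than most, with a median level of 92.7 CPM against 12.7 CPM over all tested genes, and the part of abundance in these shares was not tested. The effector genes were also chosen with earlier results of these data known. The split of calls rests on single libraries: without RBM24 library 3, 2 effector genes were higher and 5 lower, against 0.604% and 0.77% of all genes tested in that fit. Without RBM24 library 1, 4 were higher and 0 lower (0.387% and 0.171% of all), and without RBM24 library 2, 2 were higher and 0 lower (0.334% and 0.159%). Without control library 1, which stood apart, 4 were higher and 1 lower (0.649% and 0.376%). On the FPKM values, limma on log2(FPKM + 1) called 0 of the 36 and 0.28% of all tested genes, and on log2(FPKM + 0.1) it called IFI27 alone of the 36 and 0.347% of all. In bulk RNA a change in the share of cells that express a gene and a change per cell cannot be told apart.

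**Figure D2:**
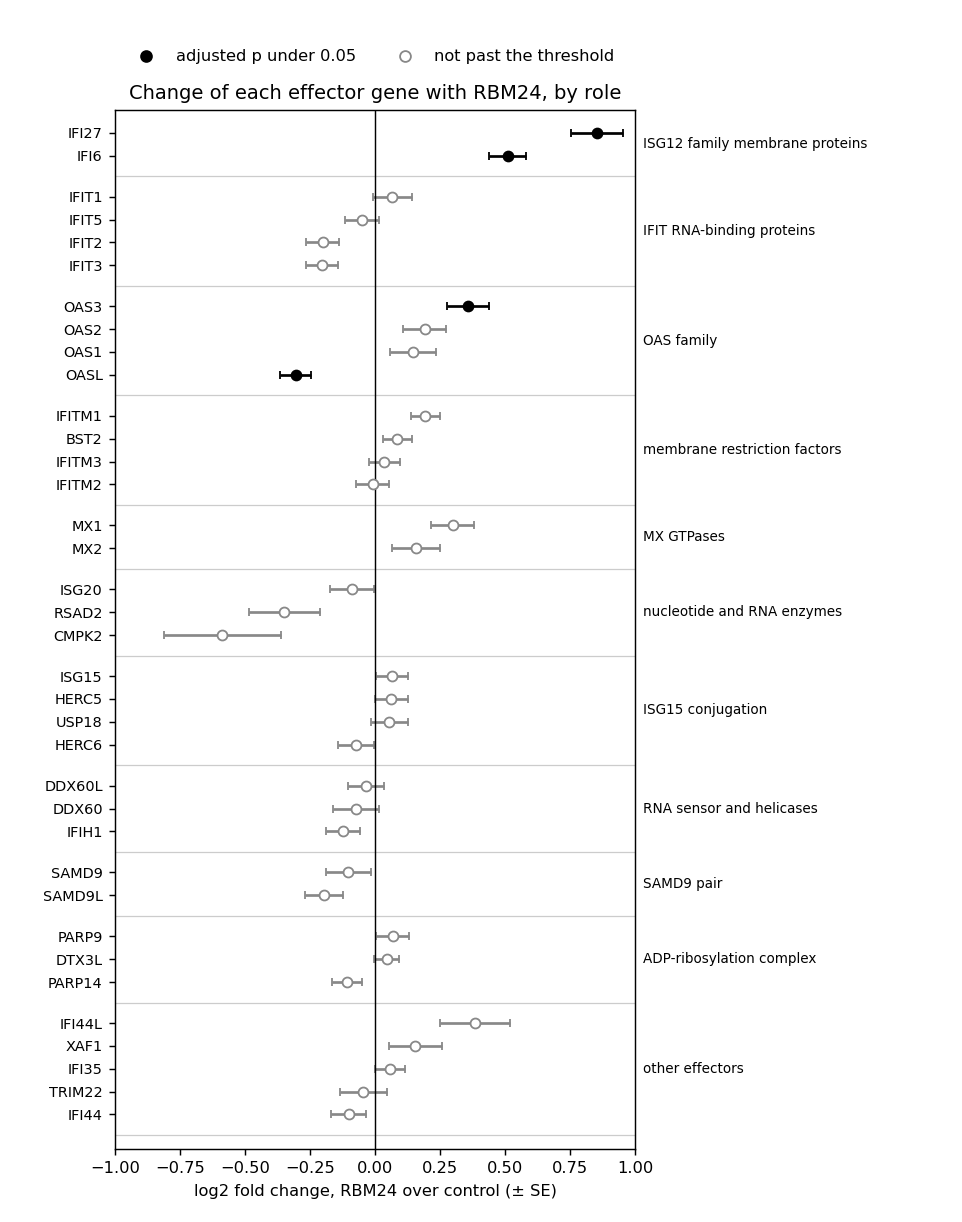
Log2 fold change of RBM24 over control plasmid (x axis, with its SE) for the 36 effector genes, grouped by role, from the fit of all 6 libraries. Filled points passed an adjusted p under 0.05: IFI27, IFI6 and OAS3 lie to the right of 0 and OASL to the left, and the open points lie on both sides.

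IFI27 and IFI6 belong to the ISG12 family of small hydrophobic proteins of membranes inside the cell, which have been tied to mitochondrial membrane stability and apoptosis. IFI27 (ENSG00000165949.12, GRCh38 chromosome 14, 94104836 to 94116698, plus strand) stood at 111, 128 and 150 CPM in RBM24 libraries 1 to 3, against 85.1, 66.4 and 63.9 CPM in control libraries 1 to 3. The groups were apart, and the highest control library was the one that stood apart. The log2 fold change was 0.85 (SE 0.101; edgeR adjusted p = 2.32e-04), and without each library in turn it lay between 0.74 and 0.99. IFI6 (ENSG00000126709.16, chromosome 1, 27666061 to 27672218, minus strand), which inhibits the release of apoptotic signals from mitochondria, stood at 91.9, 105 and 116 CPM in RBM24 libraries, against 76.4, 75.6 and 67.6 CPM in control libraries. Again the groups did not overlap, and the log2 fold change was 0.51 (SE 0.0722; edgeR adjusted p = 0.00131), with 0.43 to 0.59 without each library in turn. Neither gene shared any exact 50-base stretch of its longest coding transcript with another gene of GENCODE 29. Copies with mismatches and exons outside that transcript were not searched. For IFI27 the search covered 676 stretches, while all exons of the gene together cover 4147 bases. With limma on log2(FPKM + 1), adjusted p was 0.0541 for IFI27 and 0.0669 for IFI6, above the threshold.

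The OAS proteins bind double-stranded RNA and make oligoadenylates, which signal the breakdown of RNA in the cell. OAS1, OAS3 and OAS2 lie side by side on chromosome 12, while OASL, whose protein carries ubiquitin-like domains and lacks the synthetase activity, lies elsewhere on it. OAS3 (ENSG00000111331.14, 112938352 to 112973249, plus strand) stood at 234, 257 and 313 CPM in RBM24 libraries, against 222, 202 and 203 CPM in control libraries. The groups did not overlap, but RBM24 library 1 lay closer to control library 1 than to RBM24 library 3. Its log2 fold change was 0.36 (SE 0.0802; edgeR adjusted p = 0.0317), and leaving out RBM24 library 2 (adjusted p = 0.0895) or 3 (0.0947) ended the call, as did leaving out control library 2 (0.0788) or 3 (0.0813), DESeq2 (0.141) and the FPKM values. OAS2 stood at 84.7, 94.2 and 113 CPM in RBM24 libraries, against 92.1, 83.7 and 80.2 CPM in control libraries, and the groups overlapped. OAS2 had a log2 fold change of 0.19 (SE 0.0818; edgeR adjusted p = 0.326) and OAS1 of 0.15 (adjusted p = 0.525), so both missed the threshold.

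OASL (ENSG00000135114.13, 121019111 to 121039242, minus strand) stood at 140, 147 and 162 CPM in RBM24 libraries, against 193, 190 and 173 CPM in control libraries. The groups were apart here too, with RBM24 the lower. The log2 fold change was -0.31 (SE 0.0598; edgeR adjusted p = 0.0152; DESeq2 adjusted p = 3.44e-04), and leaving out RBM24 library 1 (adjusted p = 0.0951) or 2 (0.107) ended the call, as did the FPKM values. None of the 50-base stretches of OAS3 or OASL occurred in another gene. In the deposited FPKM values OASL was the highest of the 4, at 22.2 ± 1.78 FPKM in RBM24 libraries and 26.8 ± 0.930 FPKM in control libraries (SD, n = 3 each). OAS3 followed at 13.9 ± 2.17 FPKM in RBM24 libraries and 10.6 ± 0.435 FPKM in control libraries (SD, n = 3 each). In CPM OAS3 was the higher, at 268 and 209 in the RBM24 and control libraries, against 150 and 185 for OASL. OAS2, at 8.11 ± 1.26 and 6.94 ± 0.365 FPKM in the RBM24 and control libraries, and OAS1, at 4.95 ± 0.746 and 4.37 ± 0.391 FPKM (SD, n = 3 each), stood lower. The longest coding transcript of OAS1 held 2367 different 50-base stretches and that of OAS2 4685. The order of these 2 genes per transcript is therefore not settled by FPKM.

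**Figure D3:**
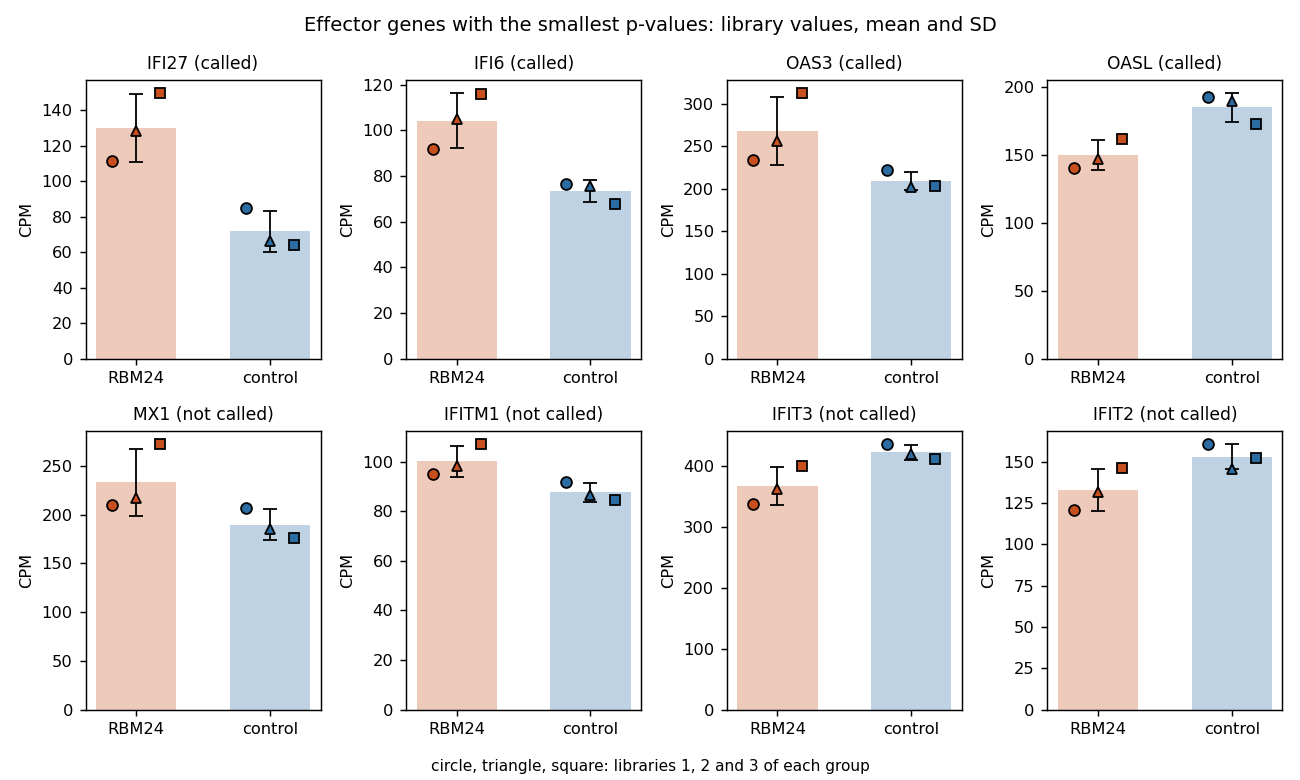
CPM of the 8 effector genes with the smallest p-values, RBM24 left of control plasmid in each panel, with bars at the group mean, error bars of 1 SD and a symbol for each library. In all 8 genes RBM24 library 3 (square) is the highest of the RBM24 libraries, and the groups do not overlap except in IFIT2.

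The IFIT proteins bind viral RNA and translation factors through tetratricopeptide repeats, and their genes lie together on chromosome 10. None of the 4 IFIT genes passed. IFIT3 stood at 337, 362 and 399 CPM in RBM24 libraries, against 435, 419 and 411 CPM in control libraries, with no overlap of the groups (log2 fold change -0.20, SE 0.0609; edgeR adjusted p = 0.126). DESeq2 gave IFIT3 an adjusted p of 0.0431, and edgeR without RBM24 library 3 gave 0.0394. IFIT2 stood at 121, 132 and 146 CPM in RBM24 libraries, against 161, 146 and 152 CPM in control libraries, and RBM24 library 3 lay just above control library 2 (log2 fold change -0.20, SE 0.0636; adjusted p = 0.152). Without RBM24 library 3, IFIT2 passed as well (adjusted p = 0.0313). IFIT5 (-0.05) and IFIT1 (0.07) were close to 0, and each changed sign when some single libraries were left out. IFIT2 shares 8.40% of its 50-base stretches with another annotated entry.

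MX1 and MX2 encode dynamin-like GTPases that trap viral nucleocapsids. MX1 stood at 210, 218 and 273 CPM in RBM24 libraries, against 207, 186 and 176 CPM in control libraries. The groups did not overlap, though RBM24 library 1 exceeded control library 1 by little (log2 fold change 0.30, SE 0.0828; edgeR adjusted p = 0.0970). MX1 passed without control library 1 (adjusted p = 0.0455) and without RBM24 library 1 (0.0497). MX2 was much less abundant, at 24.5, 25.9 and 32.2 CPM in RBM24 libraries and 26.7, 25.3 and 22.2 CPM in control libraries, and the groups overlapped (0.16, adjusted p = 0.507).

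Among proteins that restrict virus at membranes, IFITM1 stood at 94.8, 98.2 and 107 CPM in RBM24 libraries, against 91.9, 86.3 and 84.4 CPM in control libraries, without overlap (log2 fold change 0.19, SE 0.0552; edgeR adjusted p = 0.107). BST2 (0.08, adjusted p = 0.567), IFITM3 (0.03, adjusted p = 0.869) and IFITM2 (-0.01, adjusted p = 0.971) had smaller values, and IFITM2 turned positive in 7 of 17 alternatives. IFITM1 and IFITM2 share 351 exonic bases on the same strand in GENCODE 29, and 42.3% of the 50-base stretches of IFITM1, 15.8% of those of IFITM2 and 20.3% of those of IFITM3 occur in another gene, so how reads were divided among these genes is uncertain.

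RSAD2 encodes viperin, which makes an altered nucleotide that ends viral RNA chains, and CMPK2, a nucleotide kinase, lies next to it on the opposite strand. CMPK2 stood at 0.681, 1.13 and 1.59 CPM in RBM24 libraries, against 1.76, 1.56 and 1.75 CPM in control libraries. RBM24 library 1 held 47 reads of it and RBM24 library 3 held 98, so the RBM24 libraries differed among themselves by 2.34-fold. Its log2 fold change of -0.59 (SE 0.227; edgeR adjusted p = 0.268) was the most negative of the 36 and missed the threshold, which it passed without RBM24 library 3 (-0.93, adjusted p = 0.0413). RSAD2 stood at 2.00, 2.70 and 2.86 CPM in RBM24 libraries, all below the 3.44, 2.99 and 3.16 CPM of the control libraries (-0.35, SE 0.137; adjusted p = 0.276). ISG20, an RNA exonuclease gene, had a log2 fold change of -0.09 (adjusted p = 0.709).

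Of the 4 genes of ISG15 conjugation none passed. ISG15 stood at 236, 227 and 234 CPM in RBM24 libraries and at 218, 245 and 203 CPM in control libraries (log2 fold change 0.07, SE 0.0611; edgeR adjusted p = 0.708). HERC5, the main ligase for ISG15 in human cells, had a log2 fold change of 0.06 (adjusted p = 0.749), HERC6, which serves that role in mouse, of -0.07 (adjusted p = 0.718), and USP18, the protease that removes ISG15 and damps the interferon receptor, of 0.05 (adjusted p = 0.811). USP18 shares 23.0% of its 50-base stretches with USP41. Outside the effector genes, the activating enzyme UBA7 (-0.21, adjusted p = 0.184) and the conjugating enzyme UBE2L6 (0.02, adjusted p = 0.922) did not pass either.

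Of the 3 genes of RNA sensing and related helicases none passed. IFIH1, which encodes the double-stranded RNA sensor MDA5, had a log2 fold change of -0.12 (edgeR adjusted p = 0.452), and the helicase genes DDX60 (-0.07, adjusted p = 0.791) and DDX60L (-0.04, adjusted p = 0.888) changed sign without control library 1, as DDX60 did without RBM24 library 1. SAMD9L, which with SAMD9 restricts poxviruses, stood at 48.8, 53.8 and 62.8 CPM in RBM24 libraries, against 64.8, 61.4 and 63.2 CPM in control libraries (-0.20, SE 0.0720; adjusted p = 0.237), and it passed without RBM24 library 3 (adjusted p = 0.0209). SAMD9 had a log2 fold change of -0.10 (adjusted p = 0.672). PARP9 and DTX3L, which encode partners in a complex of ADP-ribosylation and ubiquitin transfer and start from a shared region, had values of 0.07 (adjusted p = 0.724) and 0.04 (adjusted p = 0.772), and their neighbour PARP14 of -0.11 (adjusted p = 0.457). PARP9 and DTX3L share 217 exonic bases on opposite strands, and no source used here says whether reads were counted by strand.

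IFI44L had the third highest log2 fold change of the 36, at 0.38 (SE 0.136), but did not pass (edgeR adjusted p = 0.218). It stood at 24.4, 26.7 and 38.2 CPM in RBM24 libraries, against 27.5, 21.3 and 19.8 CPM in control libraries, and control library 1 lay above 2 of the RBM24 libraries. Its neighbour IFI44 had a log2 fold change of -0.10 (adjusted p = 0.565). XAF1, which encodes an antagonist of the apoptosis inhibitor XIAP, stood at 53.3, 61.0 and 76.6 CPM in RBM24 libraries, against 64.5, 56.2 and 50.7 CPM in control libraries (0.16, adjusted p = 0.568), and its value fell to -0.00053 without RBM24 library 3. IFI35 (0.06, adjusted p = 0.729) and the ubiquitin ligase gene TRIM22 (-0.05, adjusted p = 0.888) did not pass, and TRIM22 ranged from -0.16 to 0.042 with each library left out.

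The effector genes varied together among libraries of the same group. RBM24 library 3 was the highest RBM24 library in 32 of the 36 genes and RBM24 library 1 the lowest in 28, whereas over all tested genes these libraries were highest and lowest in 37.4% and 33.9%. Control library 1 was the highest control library in 31 of the 36, against 36.1% of all tested genes. Against the mean of the 6 libraries, the median effector gene lay at -0.10, -0.02 and 0.12 on the log2 scale in RBM24 libraries 1 to 3, and at 0.10, -0.04 and -0.04 in control libraries 1 to 3. The summed level was 4261, 4460 and 4883 CPM in RBM24 libraries, against 4569, 4413 and 4240 CPM in control libraries, so the groups overlapped in the sum, and the RBM24 libraries were further apart among themselves than the group means were. RBM24 itself stood at 125, 109 and 124 CPM in RBM24 libraries 1 to 3, and its part in this order was not tested. The 4 genes that passed had that order as well: RBM24 library 1 was the lowest and library 3 the highest RBM24 library in each, so library 3 lay farthest from the controls in IFI27, IFI6 and OAS3 and nearest to them in OASL. The part of this shared variation in the calls was not tested.

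**Figure D4:**
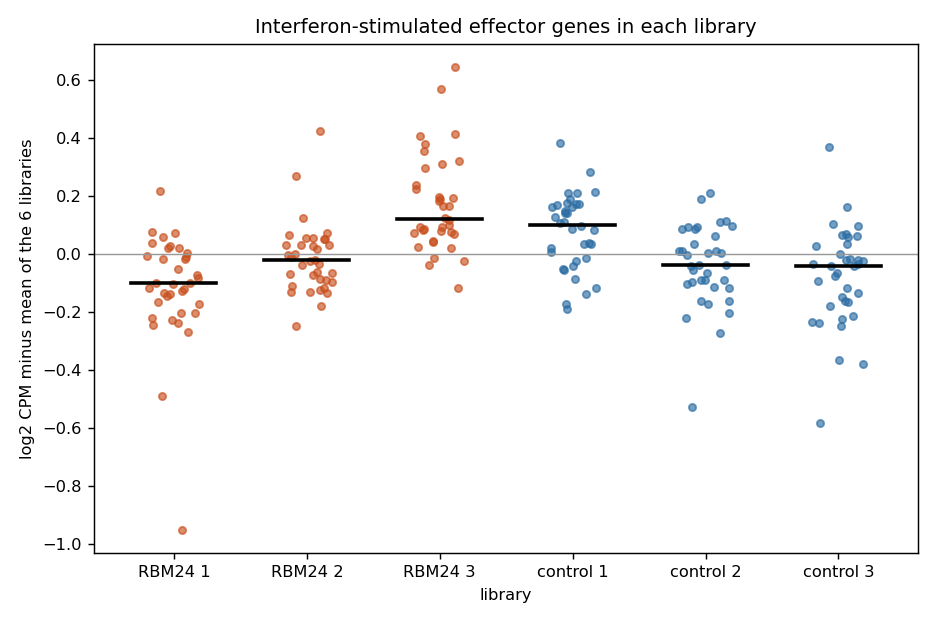
Log2 CPM of each effector gene minus its mean over the 6 libraries (y axis), a point per gene and a line at the median, for RBM24 libraries 1 to 3 and control libraries 1 to 3. The medians run from -0.10 in RBM24 library 1 to 0.12 in RBM24 library 3, and control library 1 stands at 0.10, above the other control libraries.

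The rest of the interferon pathway was read from 9 lists of 94 genes, of which 82 were listed and 74 tested. None of the 74 rose and 8 fell (10.8%, against 0.682% of all tested genes), and 51 of the 74 log2 fold changes were negative, with a median of -0.04. The lists were chosen with earlier results of these data known. Of the 21 interferon genes 9 were listed and 3 tested, and none of these passed. IFNB1, the interferon beta gene, held 18, 15 and 11 reads in RBM24 libraries and 14, 13 and 9 reads in control libraries, and the alpha interferon genes listed held 0 to 2 reads in every library. IFNL1, of the lambda interferons, held 50, 21 and 41 reads in RBM24 libraries, against 42, 55 and 44 reads in control libraries (log2 fold change -0.46, adjusted p = 0.476), and IFNE, of interferon epsilon, averaged 3.67 ± 0.486 CPM in RBM24 libraries and 3.78 ± 0.594 CPM in control libraries (SD, n = 3 each). In the deposited FPKM values IFNE averaged 2.33 and 2.34 in the RBM24 and control libraries, above RSAD2 and CMPK2. MX2 lay below IFNE in FPKM but well above it in CPM, at 27.5 and 24.7 CPM in the RBM24 and control libraries. Their order thus depends on the gene length used.

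Of the receptors none of 6 passed. The nearest was IFNGR1, a chain of the interferon gamma receptor, at 89.2, 97.6 and 104 CPM in RBM24 libraries, against 130, 113 and 106 CPM in control libraries (-0.26, edgeR adjusted p = 0.0874). IFNGR1 passed by DESeq2 (0.0265), without RBM24 library 3 (0.0413), without control library 3 (0.0241) and with no filter on low counts (2.05e-04). Of the 6 genes of JAK-STAT signalling and ISGF3 none passed: IRF9 had a log2 fold change of 0.29 (adjusted p = 0.316) and STAT2 of 0.00 (adjusted p = 0.997). IRF1, a transcription factor gene induced early by interferon gamma, fell to 265 ± 11.9 CPM in RBM24 libraries, against 320 ± 21.8 CPM in control libraries (SD, n = 3 each; -0.27, adjusted p = 0.0236). Its relative IRF7, which amplifies interferon production, had a value of 0.17 (adjusted p = 0.293). SOCS1, an inhibitor of JAK kinases, fell to 4.40 ± 0.219 CPM in RBM24 libraries, against 6.03 ± 0.816 CPM in control libraries (SD, n = 3 each; -0.45, adjusted p = 0.0466), a call that ended without any of 5 libraries, all but control library 3, and under the replicate block (adjusted p = 0.0580).

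Of the 8 decreases, 5 lay in the list of genes that respond to interferon gamma. They were 35.7% of its 14 tested genes, against 0.682% of all tested genes. As this list was chosen with earlier results of these data known, its shares describe the list and do not test it. These 5 were IDO1 (-0.83, edgeR adjusted p = 0.00113), CXCL10 (-0.81, adjusted p = 0.00577), CXCL11 (-0.71, adjusted p = 0.00622), ICAM1 (-0.37, adjusted p = 0.0159) and GBP4 (-0.30, adjusted p = 0.0391). The other 9 did not pass, among them the guanylate-binding protein gene GBP3 (-0.21, adjusted p = 0.120). Positive values were seen in 2, GBP5 (0.17, adjusted p = 0.704) and CD274 (0.03, adjusted p = 0.924). The median over the 14 genes was -0.19, and in 7 of them the groups were apart with RBM24 the lower, against 8.62% of all tested genes. Several of these genes are also NF-kB targets. Among 26 further antiviral effectors, such as EIF2AK2 and ADAR, the retroviral restriction gene TRIM5 fell (-0.29, adjusted p = 0.0301), 25 missed the threshold, and the median was -0.02. Of 9 genes of nucleic acid sensing none passed, with a median of -0.02. The calls of GBP4, TRIM5, ICAM1 and IRF1 ended without RBM24 library 1 (adjusted p = 0.216, 0.225, 0.0951 and 0.164) and without RBM24 library 2 (0.175, 0.126, 0.103 and 0.108), and those of GBP4 and TRIM5 also without control library 1 (0.111 and 0.0724) or 3 (0.0534 and 0.0631), with that of IRF1 ending without control library 2 (0.0682). With total counts as the only scaling GBP4 (0.0619) and TRIM5 (0.0648) also missed the threshold, and none of the 8 genes passed with limma on the FPKM values.

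**Figure D5:**
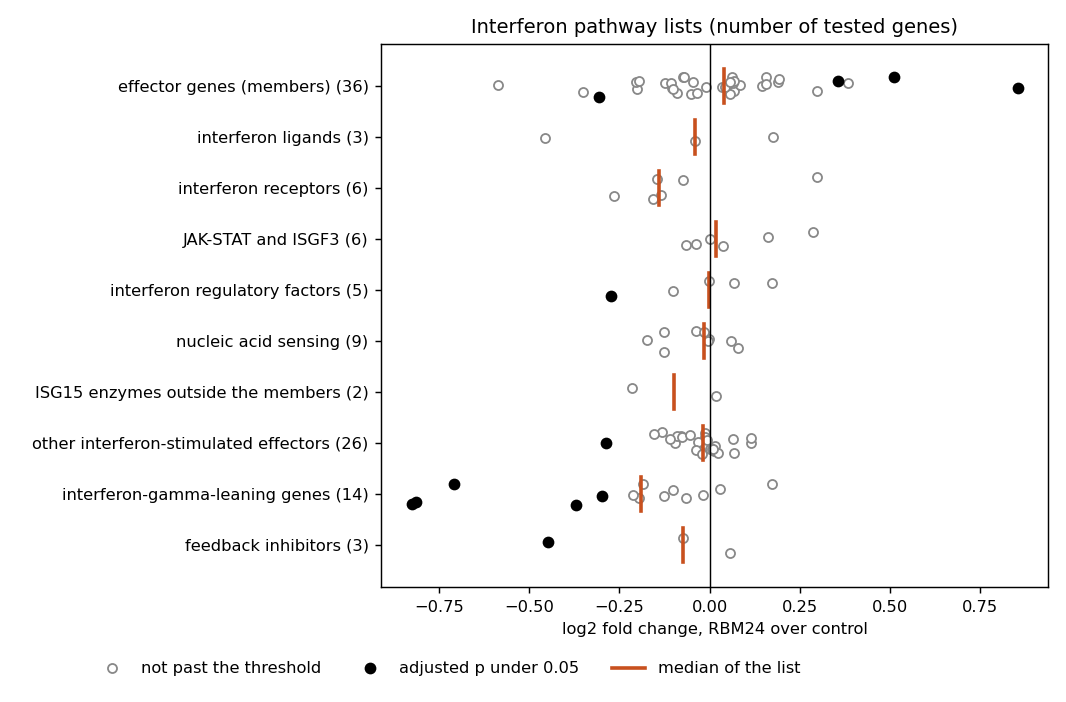
Log2 fold change of RBM24 over control plasmid for the 36 effector genes and the tested genes of 9 other interferon pathway lists, a point per gene, filled where the adjusted p was under 0.05, with a bar at each list's median. The effector genes have filled points on both sides of 0, while all 8 filled points of the other lists lie below 0. The genes and lists were chosen with earlier results of these data known.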

How the data were processed

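Total RNA of 6 CAL27 libraries was sequenced as 150-nt pairs, per the labels' protocols. The submitters' processing notes name HISAT2 and GRCh38; for the counter, annotation release and strand setting the sources used here give no name. The deposited counts are raw whole numbers for 32353 genes, and the deposited FPKM values (31513 genes) were divided by gene length and a library total by the authors. NC in the column names was taken to mean the control plasmid.

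Counts were tested with edgeR 4.0.16 in R 4.3.3: filterByExpr (17887 genes kept), TMM factors (0.976 to 1.02), a quasi-likelihood F test on group alone, and Benjamini-Hochberg adjustment over all tested genes, called at 0.05. CPM values use the TMM-scaled totals. The SE is the log2 fold change divided by the root of F. The script was tested on simulated data. Pairs of libraries differed by a chi-square of 4.52 to 33.3 per gene, more than sampling noise, and each was counted once. The effector genes, lists, roles and tests were chosen with earlier results of these data known; effector genes at an unadjusted p under 0.05 are given in full, and of the other lists those that passed and up to 3 more. Alternatives were DESeq2 1.42.0, limma 3.58.1 (voom, and log2(FPKM + 1) or log2(FPKM + 0.1)), other scaling factors and filters, the replicate block and each library left out. Gene positions, exon overlaps and shared 50-base stretches come from GENCODE 29, matched by gene identifier, a release that need not be the authors'; promoter windows come from RefSeq (GRCh38.p14). Figures were drawn with matplotlib 3.10.9.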

Additional observations from a re-analysis of the deposited data

How the results depend on the processing

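Over 17 alternatives the numbers of effector genes called higher and lower were 3 and 1 with DESeq2 size factors, upper-quartile factors, a mean count of at least 50 and limma-voom, and 4 and 1 with total counts only. They were 7 and 5 with no filter on low counts (0.943% and 1.05% of all genes), 2 and 2 by DESeq2 (1.55% and 1.17%), 0 and 0 by limma on log2(FPKM + 1) with the filter (0.257% and 0.0224%) or without it (0.0476% and 0.0127%), and 1 and 0 on log2(FPKM + 0.1) (0.319% and 0.028%). With no filter the added genes were MX1, IFI44L, IFITM1 and OAS2 among the higher and IFIT2, IFIT3, CMPK2 and SAMD9L among the lower. With each library left out in turn they ranged from 2 to 4 and from 0 to 5, and the median log2 fold change from -0.015 to 0.048. The cause was not tested. Replicate numbers did not pair the libraries (correlations of same-numbered libraries 0.00724, 0.0555 and -0.00039), and with the replicate block 3 effector genes were higher and 1 lower.

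Of the 36 effector genes, 13 kept their direction and their side of the threshold under all 17 alternatives. IFI27 lost its call in 2 and IFI6 in 3, all on FPKM values, OASL in 5 and OAS3 in 8. The sign turned in 11 uncalled genes. IFITM2 was 0.019 with total counts only, 0.0233 on log2(FPKM + 1) with the filter and without it, and 0.0237 on log2(FPKM + 0.1). With each library left out, IFITM2 ranged from -0.078 to 0.046, IFIT1 from -0.038 to 0.13, IFIT5 from -0.11 to 0.0076, IFITM3 from -0.015 to 0.093, USP18 from -0.018 to 0.10, HERC5 from -0.000305 to 0.13, DDX60 from -0.18 to 0.016, DDX60L from -0.089 to 0.038, PARP9 from -0.012 to 0.14, XAF1 from -0.00053 to 0.27 and TRIM22 from -0.16 to 0.042. With 3 libraries a group, these values are not resolved from 0.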
